A study of Mus musculus with 8 samples.

Results

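Peritoneal macrophages that lack the proprotein convertase FURIN in myeloid cells answered 1 h of lipopolysaccharide (LPS) with a steep rise of cytokine, chemokine and immediate early genes, together with smaller falls. The members are 4 RNA samples of 16 in the series: the KO samples of the 2 unstimulated arrays and of the 2 arrays of 1 h LPS. KO denotes LysMCre-fur(fl/fl), in which Cre is driven from the lysozyme M locus of myeloid cells and deletes the floxed Furin gene, and WT denotes littermate controls; both are on the C57BL/6 background. Per the labels, cells were washed from the peritoneal cavity, cultured for 24 h, rinsed to keep the adherent cells and given fresh medium, and then left unstimulated or given LPS at 1 μg/ml. There were 2 biological replicates per group; whether animals were pooled, and their age, are not given in the sources used here. Each 2-colour array held KO and WT RNA of one replicate. KO RNA carried Cy5 in replicate 1 and Cy3 in replicate 2, so that dye and replicate number are 1 factor, balanced between the unstimulated and the LPS samples. Samples were placed by their titles and source names, since the labels' growth protocol gives 4 h of stimulation for every sample. What was compared is every gene probe of the array, 1 h LPS minus unstimulated within KO.

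LPS, a component of the outer membrane of Gram-negative bacteria, is sensed on macrophages by TLR4 together with CD14 and MD-2. The adaptors MyD88 and TRIF then activate NF-κB, MAP kinases and interferon regulatory factors. The first genes to respond need no new protein; they encode transcription factors, cytokines and chemokines, and also inhibitors that end the signal. A later group answers to the cytokines made first, above all interferon beta. FURIN cuts precursor proteins into their mature forms in the secretory pathway, among them TGF-β1.

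Levels are given as normalised log2 intensities, so that 1 unit is a doubling, and they compare samples for 1 gene but not genes with each other. Furin itself measured 10.98 and 10.63 without LPS and 10.71 and 10.69 after 1 h in KO, and 11.57 and 11.48 without LPS and 11.27 and 11.24 after 1 h in WT. Every KO value lay below every WT value, by 0.72 ± 0.13 (SE) at rest (limma adjusted p = 0.057) and by 0.56 ± 0.13 after 1 h (adjusted p = 0.299). The probe's place relative to the deleted part of the gene is not known here, so this level checks the labels only weakly. Within KO the Furin samples overlapped between the groups, and the change was -0.10 ± 0.14 (SE, adjusted p = 0.809). Lyz2, whose locus drives Cre, measured 17.10 and 16.96 without LPS and 17.08 and 16.83 after 1 h in KO. In WT it measured 18.10 and 17.70 without LPS and 18.10 and 17.68 after 1 h, above every KO value. KO minus WT was -0.87 ± 0.20 (SE, limma adjusted p = 0.15) at rest. After 1 h it was -0.93 ± 0.20 (SE, adjusted p = 0.22). Within KO the Lyz2 change was -0.07 ± 0.21 (SE, adjusted p = 0.936).

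In the 4 KO samples, 46.6% to 49.4% of gene spots were well above background and no spot was saturated. The markers of the labelled cell type were all well above background. The log2 of the summed intensity of 9 macrophage markers lay between 19.03 and 19.08 in every KO sample. Such a sum is weighted to the brightest markers and can hide changes of the others. The median change of the 9 was -0.33, with 1 rise (Cd14) and 8 not called. The same sum for 11 markers of large peritoneal macrophages lay between 18.76 and 18.90, with a median change of -0.19 and 1 fall (Gata6). The sums below were formed in the same way. RNA of other cells was also detected. The 11 B cell markers summed to 16.36 and 16.91 without LPS and 16.77 and 16.91 after 1 h, with a median change of 0.49 although 0 of 11 passed the test. For 13 markers of T and NK cells the sum was 14.41 and 14.59 without LPS and 14.98 and 14.80 after 1 h, again with 0 of 13 called. For 9 mast cell markers it ranged from 13.50 to 14.17, with 1 rise, the histidine decarboxylase gene Hdc (1.34). Neutrophil markers summed to 12.96 to 13.22, and 7 of the 11 were not well above background in any of the 4. The 7 eosinophil markers summed to 11.00 to 11.67 and the 13 markers of mesothelial cells and fibroblasts to 10.66 to 10.84, with none called. Of 8 dendritic cell markers Zbtb46 (1.06) and Ccr7 (1.04) rose and Batf3 (-0.96) fell, and of 9 markers of small peritoneal macrophages Irf4 rose. Over all named genes 3.82% rose and 6.34% fell, and with so few markers these counts say little of a cell type. The part of these cells in the results was not tested. In bulk RNA, fewer cells of a type and less RNA per cell cannot be told apart.

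Of 36927 genes and transcripts tested, 1142 rose (3.09%) and 1614 fell (4.37%) after 1 h of LPS in KO at a limma adjusted p under 0.05. Among the 20836 named genes, 796 rose (3.82%) and 1321 fell (6.34%). Rises were larger than falls. Their median was 0.83 on the log2 scale, and 453 rose by over 1, 172 by over 2 and 32 by over 4. The median of the falls was -0.58; 171 fell by over 1 and 12 by over 2. The median change over all tested was -0.02 (-0.03 among named genes). Every call had the same direction in both replicate numbers. This is largely built into a call, since the fitted change is the mean of the 2 replicate changes. Across all genes tested the 2 changes had a Pearson r of 0.79, given as a description since genes are not independent. Among the rises, 90 were not well above background on either unstimulated array, and among the falls 67 were not well above background on either 1 h array. Calls without a gene name numbered 346 rises and 293 falls.

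With 2 arrays per group the number of calls leaned on each array. It was 1435 without the unstimulated replicate 1 array, 1983 without replicate 2, 1707 without the 1 h replicate 1 array and 1484 without replicate 2. Rises and falls numbered 695 and 740, 874 and 1109, 876 and 831, and 793 and 691 in the same order, so that rises outnumbered falls when either 1 h array was left out. The same calls were kept for 48.5%, 61.5%, 58.2% and 49.5% of the 2756.

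**Figure D1:**
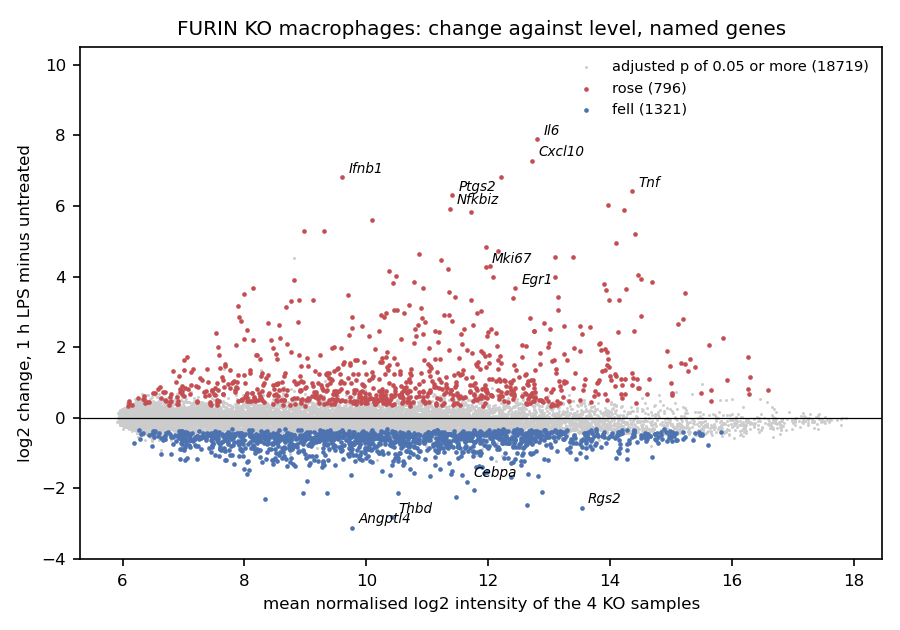
Each point is 1 of the 20836 named genes tested, with its mean normalised log2 intensity over the 4 KO samples on the x axis and its log2 change (1 h LPS minus unstimulated) on the y axis. Red points rose (796), blue points fell (1321) and grey points had an adjusted p of 0.05 or more; the rises reach 7.89 and the falls -3.11.

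Genes of cytokines and chemokines led the rises. Il6, the gene of the cytokine interleukin 6, measured 9.23 and 8.49 without LPS and 16.60 and 16.90 after 1 h, a rise of 7.89 ± 0.28 (SE, adjusted p = 1.19e-09), or 237-fold. Cxcl10, a chemokine for activated T cells, measured 9.13 and 9.03 without LPS and 16.24 and 16.49 after 1 h and rose by 7.28 ± 0.28 (SE, adjusted p = 2.69e-09), or 156-fold. Tnf, which encodes tumour necrosis factor, was already well above background at rest. It measured 11.00 and 11.32 without LPS and 17.52 and 17.65 after 1 h and rose by 6.43 ± 0.26 (SE, adjusted p = 4.18e-09), or 86-fold. Tnfsf9, the 4-1BB ligand, measured 9.08 and 8.52 without LPS and 15.61 and 15.62 after 1 h and rose by 6.81 ± 0.19 (SE, adjusted p = 2.53e-10). In these 4 genes the replicates lay within 0.75 of each other, far closer than the groups.

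The interferon beta gene Ifnb1 was not well above background in either unstimulated sample. Its measured levels were 6.19 and 6.20 without LPS and 12.72 and 13.30 after 1 h, and the rise was at least 111-fold (adjusted p = 2.19e-10). Such bounds set the 1 h mean against a floor for each unstimulated sample, which is the gene's own signal there or the lowest signal among probes well above background, whichever is higher. Ereg, an EGF receptor ligand, was likewise not well above background at rest, at 6.31 and 6.35 without LPS and 11.65 and 11.60 after 1 h. It rose at least 38.8-fold (adjusted p = 2.23e-07). Csf2, the gene of GM-CSF, measured 7.60 and 6.98 without LPS and 12.94 and 12.85 after 1 h and rose by 5.60 ± 0.41 (SE, adjusted p = 8.81e-07). With the processed signals of the scanner software its change was 6.58. Here too no 1 h sample overlapped an unstimulated one.

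Both interleukin 1 genes were among the 12. Il1b measured 11.67 and 10.92 without LPS and 17.03 and 17.31 after 1 h and rose by 5.87 ± 0.26 (SE, adjusted p = 1.06e-08), and Il1a measured 9.07 and 8.53 without LPS and 14.58 and 14.70 after 1 h and rose by 5.84 ± 0.27 (SE, adjusted p = 1.1e-08). Unstimulated replicate 1 was the higher of the pair for both, by 0.75 for Il1b. Cxcl1, a chemokine for neutrophils, measured 11.04 and 10.89 without LPS and 16.86 and 17.10 after 1 h and rose by 6.01 ± 0.33 (SE, adjusted p = 5.56e-08). The remaining pair act inside the cell. Ptgs2, the inducible cyclooxygenase of prostaglandin synthesis, measured 8.24 and 8.28 without LPS and 14.39 and 14.74 after 1 h and rose by 6.31 ± 0.26 (SE, adjusted p = 4.18e-09). Nfkbiz, an atypical nuclear IκB protein, measured 8.25 and 8.59 without LPS and 14.16 and 14.53 after 1 h and rose by 5.93 ± 0.19 (SE, adjusted p = 5.06e-10). All 12 were also called higher than unstimulated at 4 h and at 24 h of LPS, against the same 2 unstimulated samples.

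**Figure D2:**
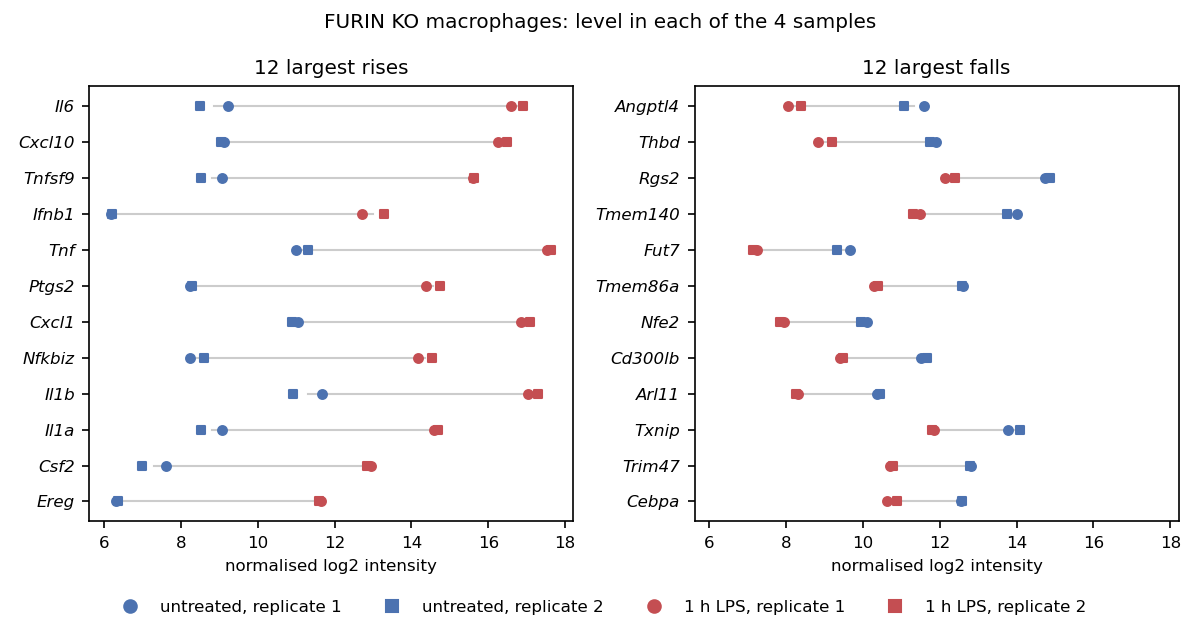
Normalised log2 intensity (x axis) of the 12 largest rises (left) and 12 largest falls (right) among named genes in each of the 4 KO samples; circles are replicate 1, squares replicate 2, blue is unstimulated, red is 1 h LPS and the grey line joins the group means. In none of the 24 genes do red and blue overlap, and replicates of a group lie within 0.75 of each other. The genes were chosen as the largest called changes, so a gap between the groups is built into the choice, here and in the text.

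The promoters of 6 of these genes are shown because NF-κB, AP-1 and IRF elements are the textbook input of the LPS response. Each is the 250 bases before the transcription start, 5′ to 3′ in the direction of the gene, from RefSeq on GRCm38.p6: Il6 at chr5:30012864-30013113 on the plus strand, Cxcl10 at chr5:92348890-92349139 on the minus strand, Ifnb1 at chr4:88522795-88523044 on the minus strand, Tnf at chr17:35202008-35202257 on the minus strand, Ptgs2 at chr1:150099781-150100030 on the plus strand and Cxcl1 at chr5:90890995-90891244 on the plus strand. Capitals mark matches to the motifs searched on both strands: the NF-κB consensus, the AP-1 element TGANTCA, the cyclic AMP response element TGACGTCA, the interferon regulatory factor element GAAANNGAA, the TATA box TATAAA and the CArG box.
Il6: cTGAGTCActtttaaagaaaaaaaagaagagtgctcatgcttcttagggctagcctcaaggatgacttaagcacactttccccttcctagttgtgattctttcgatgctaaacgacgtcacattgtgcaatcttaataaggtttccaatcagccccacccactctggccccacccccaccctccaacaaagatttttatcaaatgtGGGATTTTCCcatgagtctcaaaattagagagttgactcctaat
Cxcl10: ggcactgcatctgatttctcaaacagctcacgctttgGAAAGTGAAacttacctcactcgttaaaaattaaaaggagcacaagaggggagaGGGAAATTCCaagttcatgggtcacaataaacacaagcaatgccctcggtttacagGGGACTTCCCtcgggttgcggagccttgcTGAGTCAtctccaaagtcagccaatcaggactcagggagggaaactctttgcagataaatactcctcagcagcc
Ifnb1: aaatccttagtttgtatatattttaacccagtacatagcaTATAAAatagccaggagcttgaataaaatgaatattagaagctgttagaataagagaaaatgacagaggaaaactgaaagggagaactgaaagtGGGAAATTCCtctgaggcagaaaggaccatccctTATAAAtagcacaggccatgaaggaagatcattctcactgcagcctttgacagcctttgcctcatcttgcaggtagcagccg
Tnf: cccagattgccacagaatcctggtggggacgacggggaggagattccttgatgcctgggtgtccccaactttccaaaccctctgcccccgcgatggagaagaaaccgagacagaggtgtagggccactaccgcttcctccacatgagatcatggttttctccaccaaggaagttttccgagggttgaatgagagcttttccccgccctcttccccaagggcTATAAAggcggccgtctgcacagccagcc
Ptgs2: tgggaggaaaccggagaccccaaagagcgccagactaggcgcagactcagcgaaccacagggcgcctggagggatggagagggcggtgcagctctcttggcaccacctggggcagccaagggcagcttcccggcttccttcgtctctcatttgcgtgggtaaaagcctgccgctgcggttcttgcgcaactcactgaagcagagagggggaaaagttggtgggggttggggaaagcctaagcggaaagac
Cxcl1: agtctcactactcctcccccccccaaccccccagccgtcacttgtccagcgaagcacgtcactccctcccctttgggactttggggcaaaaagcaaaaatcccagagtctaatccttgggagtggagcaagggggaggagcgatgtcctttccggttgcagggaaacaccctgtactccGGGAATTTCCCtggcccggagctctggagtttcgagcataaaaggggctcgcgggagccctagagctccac

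In the Il6 promoter the capitals are an AP-1 element 249 to 243 bases before the start and an NF-κB match 44 to 35 bases before it. Cxcl10 holds an interferon regulatory factor element at 213 to 205, NF-κB matches at 159 to 150 and 103 to 94 and an AP-1 element at 74 to 68 bases before the start. Ifnb1 has an NF-κB match that begins 116 bases before the start, between TATA boxes at 210 to 205 and 82 to 77. The letters GAAANNGAA do not occur in its window, which does not show that it lacks a site for interferon regulatory factors. The Cxcl1 matches to the NF-κB consensus overlap, at 71 to 62 and 70 to 61. Tnf shows only a TATA box, at 29 to 24, and Ptgs2 shows no match, which says only that these letters are not in this window.

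Across all genes, the NF-κB consensus stood in 3.90% of the 32851 RefSeq promoters, in 9.24% of the 801 promoters of genes that rose, in 16.3% of the 123 promoters of genes that rose by over 2 and in 3.44% of the 1337 promoters of genes that fell. The cyclic AMP response element stood in 1.55%, 4.24%, 8.13% and 1.87% in the same order. For the interferon regulatory factor element the shares were 7.13%, 8.49%, 13.8% and 6.51%, and for the AP-1 element 6.75%, 6.24%, 8.94% and 3.44%. The TATA box stood in 12.4% of all promoters, 9.61% of those that rose, 13% of those that rose by over 2 and 5.83% of those that fell, and the CArG box in 1.47%, 2.12%, 0.813% and 1.05%. Genes tested on the array, from which the calls come, had 20144 promoters. Of these, 4.23% held the NF-κB consensus, 2.01% the cyclic AMP response element and 6.89% the interferon regulatory factor element. The AP-1 element stood in 6.19%, the TATA box in 11% and the CArG box in 1.32%. A gene may have several promoters, some motifs overlap each other, and a match is a description of letters, not of a bound site.

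The largest falls were smaller in size than the largest rises. Angptl4, an inhibitor of lipoprotein lipase, measured 11.58 and 11.07 without LPS and 8.04 and 8.39 after 1 h and fell by 3.11 ± 0.59 (SE, adjusted p = 0.00449). Its call was lost without the unstimulated replicate 1 array. Thbd, thrombomodulin, measured 11.91 and 11.75 without LPS and 8.83 and 9.21 after 1 h and fell by 2.81 ± 0.24 (SE, adjusted p = 4.45e-06). Rgs2, a regulator that shortens G protein signalling, measured 14.74 and 14.88 without LPS and 12.13 and 12.40 after 1 h and fell by 2.54 ± 0.18 (SE, adjusted p = 7.2e-07), with -1.17 at a second probe. The samples of these genes stood well apart between the groups.

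Among the other 9 of the 12, Cebpa, a transcription factor of myeloid differentiation, measured 12.54 and 12.58 without LPS and 10.63 and 10.88 after 1 h and fell by 1.81 ± 0.15 (SE, adjusted p = 3.43e-06). Txnip, a thioredoxin-binding protein that restrains glucose uptake, measured 13.79 and 14.08 without LPS and 11.84 and 11.80 after 1 h and fell by 2.11 ± 0.13 (SE, adjusted p = 2.48e-07). Nfe2, a bZIP factor of the blood lineages, measured 10.12 and 9.95 without LPS and 7.94 and 7.85 after 1 h and fell by 2.14 ± 0.19 (SE, adjusted p = 5.74e-06). No sample of these 3 overlapped. Cd300lb, an activating receptor of myeloid cells, measured 11.50 and 11.66 without LPS and 9.42 and 9.49 after 1 h and fell by 2.13 ± 0.10 (SE, adjusted p = 1.71e-08), and Fut7, the fucosyltransferase that completes selectin ligands, measured 9.66 and 9.33 without LPS and 7.25 and 7.14 after 1 h and fell by 2.30 ± 0.12 (SE, adjusted p = 3.6e-08), with -0.60 at a second probe. Tmem86a fell by 2.25, a call lost with the processed signals of the scanner software, Tmem140 by 2.48, the ARF-like GTPase gene Arl11 by 2.12 and the RING finger gene Trim47 by 2.05. At 24 h all 12 were still called lower than unstimulated. At 4 h 11 were, the other being Tmem140, with a change of -0.17.

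Lists of genes by function were counted by the same test, and each count stands against the 3.82% of all named genes that rose and the 6.34% that fell. Of 34 components of the TLR4 receptor complex and its signalling, 7 rose and 4 fell, with a median of 0.07. Tlr4 measured 10.14 and 10.29 without LPS and 9.12 and 9.24 after 1 h and fell by 1.03 ± 0.20 (SE, adjusted p = 0.00564). Its co-receptor Cd14 measured 15.54 and 15.88 without LPS and 16.76 and 16.99 after 1 h and rose by 1.16 ± 0.26 (SE, adjusted p = 0.0118). The adaptor genes Myd88 and Ticam1, which encodes TRIF, rose by 0.98 and 0.92, and Mapkapk2, a kinase below p38, by 1.07. Mapk3, which encodes ERK1, fell by 0.54. These counts were unsteady: without the unstimulated replicate 1 array 4 rose and 2 fell, without replicate 2 it was 5 and 0, without the 1 h replicate 1 array 5 and 1, and without replicate 2 it was 4 and 1. The call of Tlr4 was lost without the unstimulated replicate 2 array, that of Cd14 without either the unstimulated replicate 1 or the 1 h replicate 2 array, and that of Mapk3 without any one of the 4.

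Of 13 other Toll-like receptors and their partners, only Tlr2, the receptor of bacterial lipoproteins, rose, and none fell, where 3.82% of all named genes rose and 6.34% fell, so that 1 gene says little of the group. It measured 14.35 and 14.64 without LPS and 15.98 and 16.30 after 1 h, a rise of 1.65 ± 0.21 (SE, adjusted p = 0.000206). The median of the 13 was -0.11.

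Of 23 NF-κB subunits, inhibitors and partners, 17 rose and none fell, with a median of 1.27. Tnfaip3, the gene of the ubiquitin-editing enzyme A20, measured 12.40 and 12.49 without LPS and 16.02 and 16.15 after 1 h and rose by 3.65 ± 0.12 (SE, adjusted p = 6.57e-10). Nfkbia, which encodes the classical inhibitor IκBα, measured 14.62 and 14.86 without LPS and 16.91 and 17.08 after 1 h and rose by 2.25 ± 0.14 (SE, adjusted p = 2.21e-07). Nfkbid rose by 2.45, Traf1 by 2.43, Nfkbib by 2.02 and Nfkbie by 1.84. All 5 subunit genes rose, Rel by 1.78 (3.34 with the processed signals), Nfkb2 by 1.64, Rela by 0.99, Nfkb1 by 0.87 and Relb by 0.84. Those not called were the kinase genes Chuk (0.33), Ikbkb (0.31) and Ikbkg (-0.12), together with Tnip2, Cyld and Tifa. The call of Nfkb1 was lost without the unstimulated replicate 1 or the 1 h replicate 2 array.

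Immediate early transcription factors rose in 26 of 40 cases and fell in 1, with a median of 1.24. Csrnp1 and Maff, a small bZIP repressor, rose by 4.56 and 4.16. Nr4a1, an orphan nuclear receptor, measured 12.41 and 12.47 without LPS and 16.37 and 16.59 after 1 h and rose by 4.04 ± 0.18 (SE, adjusted p = 1.15e-08). Egr1, a zinc finger factor of the growth factor response, measured 10.69 and 10.52 without LPS and 14.15 and 14.40 after 1 h and rose by 3.67 ± 0.15 (SE, adjusted p = 4.18e-09). The bHLH factor gene Myc rose by 3.11 from 9.13 and 9.56. AP-1 members moved less: Junb rose by 2.81, Fos by 2.59, Jun by 1.88, Fosl2 by 1.79, Fosb by 1.21, Atf3 by 1.11 and Jund by 1.09. The one fall was Klf9 (-0.74), whose call was lost without either unstimulated array or the 1 h replicate 1 array. Klf2 and Klf4, Krüppel-like factors that restrain inflammation, measured changes of 0.07 and -0.01 and were not called.

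Of 22 phosphatase, Sprouty, Spred and related genes, 13 rose and 3 fell, with a median of 1.06. Dusp1, the phosphatase of p38 and JNK, measured 10.36 and 9.75 without LPS and 13.35 and 13.42 after 1 h and rose by 3.33 ± 0.24 (SE, adjusted p = 9.79e-07). Dusp2, a related nuclear phosphatase, rose by 3.33, and Errfi1, an inhibitor of the EGF receptor, by 3.42. The phosphatases of ERK in the cytoplasm went the other way. Dusp6 measured 11.22 and 10.95 without LPS and 9.78 and 9.71 after 1 h and fell by 1.34 ± 0.19 (SE, adjusted p = 0.000501), and Dusp7 measured 9.99 and 9.85 without LPS and 8.85 and 8.49 after 1 h and fell by 1.25 ± 0.15 (SE, adjusted p = 0.000101). The third fall, Trib3 (-0.60), was lost without the unstimulated replicate 1 or the 1 h replicate 2 array. For Dusp1, Dusp6 and Dusp7 the groups did not overlap.

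Brakes on TLR and cytokine signalling rose in 10 of 24 cases and fell in 2, with a median of 0.42, where 3.82% and 6.34% of all named genes did. Zfp36, tristetraprolin, which destabilises cytokine mRNA, measured 9.06 and 8.66 without LPS and 12.65 and 12.78 after 1 h and rose by 3.85 ± 0.19 (SE, adjusted p = 2.39e-08). Socs3, an inhibitor of gp130 signalling, measured 12.12 and 11.90 without LPS and 15.70 and 15.91 after 1 h and rose by 3.80 ± 0.21 (SE, adjusted p = 7.32e-08). Cish, a further SOCS protein, rose by 3.05, Zc3h12a, the mRNA-cleaving enzyme regnase-1, by 2.92 and the anti-inflammatory cytokine gene Il10 by 2.73. Socs1, the brake on interferon signalling, stood at 8.06 and 7.93 without LPS and 8.60 and 8.39 after 1 h and was not called (0.50, SE 0.17, adjusted p = 0.101). The falls, a share near that of all named genes, were Cd200r1 (-0.93), an inhibitory receptor, and Zfp36l2 (-0.66). Without the unstimulated replicate 1 or the 1 h replicate 2 array only Cd200r1 was called, and without the unstimulated replicate 2 array only Zfp36l2.

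Cytokines and growth factors held the largest changes of any list. Of 35 tested, 23 rose and none fell, with a median of 1.38. Beyond the genes described above, the EGF receptor ligand Areg measured 6.79 and 6.53 without LPS and 11.76 and 12.12 after 1 h and rose by 5.28 ± 0.29 (SE, adjusted p = 5.65e-08), a value of 7.14 with the processed signals of the scanner software. Osm, the gene of oncostatin M, measured 8.63 and 8.43 without LPS and 12.35 and 12.33 after 1 h and rose by 3.81 ± 0.35 (SE, adjusted p = 1.05e-05). The genes of G-CSF (Csf3), the IL-23 subunit p19 (Il23a) and leukaemia inhibitory factor (Lif) were not well above background at rest. They rose at least 12.7-fold, at least 11.5-fold and at least 8.95-fold (adjusted p = 8.32e-06, 5.46e-07 and 2.13e-05). Smaller rises were those of Vegfa (1.38), Hbegf (1.32) and Tgfb3 (1.05). Tgfb1 and Tgfb2 were not called (0.13 and -0.21), and neither were Il15 (-0.25), Il18 (-0.02) or Il33, which was not well above background in any of the 4 samples.

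In the CC chemokine family 5 of 18 rose and none fell (median 0.24), where 3.82% of all named genes rose. Ccl4 measured 12.07 and 11.55 without LPS and 16.95 and 17.10 after 1 h and rose by 5.22 ± 0.14 (SE, adjusted p = 2.19e-10), and Ccl3, a further inflammatory chemokine, rose by 3.84. Ccl2, which draws monocytes, measured 12.94 and 12.15 without LPS and 16.50 and 16.45 after 1 h and rose by 3.94 ± 0.25 (SE, adjusted p = 2.09e-07). Its neighbour Ccl7 measured 10.74 and 10.00 without LPS and 13.30 and 13.46 after 1 h and rose by 3.01 ± 0.54 (SE, adjusted p = 0.00316), a call lost without the unstimulated replicate 2 array. Ccl5 rose by 2.13. For both Ccl2 and Ccl7 unstimulated replicate 1 was the higher of the pair, and still below the 1 h samples. In the CXC family 6 of 14 rose and none fell (median 0.07): beside Cxcl10 and Cxcl1, Cxcl2 rose by 4.94, Cxcl3 by 2.15 and Cxcl5 by 1.77, all ligands of CXCR2. Cxcl9 rose by 0.85 at the brighter probe, with -0.10 at the other, and its call was lost with the mean of its probes (0.37). Ccl8, Ccl11 and Ccl20 were not well above background in any of the 4 samples.

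Of 32 interferon-induced genes, 9 rose and 5 fell, with a median of 0.20, beside 3.82% and 6.34% over all named genes. Isg15, a ubiquitin-like modifier, measured 11.27 and 10.95 without LPS and 14.98 and 15.22 after 1 h and rose by 3.99 ± 0.14 (SE, adjusted p = 9.72e-10). Oasl1 measured 10.03 and 10.15 without LPS and 13.83 and 14.32 after 1 h and rose by 3.98 ± 0.16 (SE, adjusted p = 2.74e-09). Ifit1, which binds foreign RNA, rose by 3.34, the RNA sensor Ifih1 by 2.96 and the guanylate-binding protein Gbp5 by 2.91. Usp18, the protease that removes ISG15, measured 10.56 and 10.58 without LPS and 9.29 and 9.56 after 1 h and fell by 1.15 ± 0.25 (SE, adjusted p = 0.0105). Irgm1 (-0.72), Oasl2 (-0.65), Xaf1 (-0.56) and Oas1a (-0.48) fell as well. Without the unstimulated replicate 1 array 2 of the 5 falls were called, and without the 1 h replicate 1 array 3 were. Usp18 and Oasl2 were lost without the unstimulated replicate 1 array, Irgm1 without the unstimulated replicate 2 or the 1 h replicate 1 array, and Oas1a without each array except the unstimulated replicate 2 array.

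Interferon regulatory factors and STATs moved by less: 6 of 22 rose and 3 fell, with a median of 0.09, beside the same 3.82% and 6.34%. Irf1, an early factor of macrophage activation, measured 14.38 and 14.40 without LPS and 16.02 and 15.88 after 1 h and rose by 1.56 ± 0.14 (SE, adjusted p = 5.74e-06). Irf4 rose by 1.58 and Stat4 by 1.01. Stat2 and Irf9, which act downstream of the interferon receptor, fell by 0.67 and 0.53. Irf8, a factor of the monocyte lineage, fell by 0.58, and Irf7 was not called (-0.04). Leaving out 1 array moved these counts to 3 rises and 2 falls (unstimulated replicate 1), 4 and 1 (unstimulated replicate 2), 3 and 2 (1 h replicate 1) and 4 and 1 (1 h replicate 2); Stat2 was lost in each case and Irf9 without either replicate 2 array.

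Adhesion and costimulation genes rose in 7 of 22 cases, with no fall and a median of 0.22. Cd69, an activation antigen that keeps leukocytes in tissue, measured 8.31 and 8.76 without LPS and 12.84 and 13.53 after 1 h and rose by 4.65 ± 0.27 (SE, adjusted p = 1.15e-07). Vcam1, a ligand of the integrin VLA-4, rose by 3.91, with 0.97 at a second probe. Icam1, the ligand of LFA-1, measured 9.67 and 10.15 without LPS and 12.69 and 12.94 after 1 h and rose by 2.91 ± 0.14 (SE, adjusted p = 2.28e-08). Cd83 rose by 2.67, Icosl by 2.40 and Cd40 by 1.55, while Cd80 and Cd86 were not called (-0.30 and 0.02). The smallest rise, that of the PD-L1 gene Cd274 (0.48), was lost without any one of the 4 arrays.

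Among 21 genes of prostaglandin, nitric oxide, itaconate and related enzymes, 9 rose and 1 fell, with a median of 0.26, against 3.82% and 6.34% of all named genes. Acod1, which makes itaconate, measured 13.45 and 13.48 without LPS and 17.05 and 16.96 after 1 h and rose by 3.54 ± 0.17 (SE, adjusted p = 1.49e-08). Ch25h, the cholesterol 25-hydroxylase, measured 7.18 and 7.07 without LPS and 10.54 and 10.30 after 1 h and rose by 3.30 ± 0.44 (SE, adjusted p = 0.00028). Gch1, which starts the synthesis of the nitric oxide synthase cofactor, rose by 1.66, and the cystine transporter Slc7a11 by 1.72, a call lost without the 1 h replicate 2 array. Nos2, the inducible nitric oxide synthase, stood at 8.11 and 7.82 without LPS and 8.18 and 8.07 after 1 h, overlapping between the groups, with a value of 0.15 ± 0.37 (SE, adjusted p = 0.921). The one fall, Ptges2 (-0.39), was lost without each array except the unstimulated replicate 2 array.

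Inflammasome and cell death genes rose in 13 of 21 cases and fell in 1, with a median of 0.99. Nlrp3, an inflammasome sensor, measured 7.19 and 7.27 without LPS and 10.52 and 10.63 after 1 h and rose by 3.35 ± 0.16 (SE, adjusted p = 1.3e-08). The stress genes Gadd45b and Gadd45a rose by 3.41 and 2.67, Cflar, an inhibitor of caspase 8, by 2.47, and the BH3 genes Pmaip1 and Bcl2l11 by 2.70 and 2.19. A further BH3 gene, Bbc3, fell by 0.73. Cdkn1a, the CDK inhibitor p21, rose by 2.00 at the brighter probe and measured -0.07 at the other. Bcl2a1d rose by 1.71, and its near-identical copies cannot be told from it here. Casp1, Gsdmd and Pycard were not called (-0.15, -0.10 and -0.58), although Pycard was called lower with a replicate block.

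Receptors coupled to G proteins, their regulators and growth factor receptors went both ways, with 12 of 39 up and 7 down and a median of -0.17, where 3.82% of all named genes were up and 6.34% down. Gpr84, a receptor of medium-chain fatty acids, measured 12.18 and 11.34 without LPS and 14.60 and 13.98 after 1 h and rose by 2.53 ± 0.37 (SE, adjusted p = 0.000609). C5ar1, the receptor of complement C5a, measured 12.14 and 11.72 without LPS and 14.08 and 14.03 after 1 h and rose by 2.13 ± 0.15 (SE, adjusted p = 8.01e-07), and the formyl peptide receptor genes Fpr1 and Fpr2 rose by 1.99 and 1.24. Falls after Rgs2 were those of the lipid receptors S1pr2, at 9.90 and 9.94 without LPS and 8.14 and 8.13 after 1 h (-1.79, SE 0.10, adjusted p = 1.04e-07), and Lpar6 (-1.67), and of the chemokine receptor Cxcr4 (-0.80). The TGF-β receptor gene Tgfbr1 fell by 0.73. Of the 7 falls 4 were called without the unstimulated replicate 1 array, and 5 without any one of the other 3. Cxcr4 was lost without the unstimulated replicate 1 or the 1 h replicate 2 array.

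Factors and receptors of macrophage identity also went both ways. Of 39 tested, 9 rose and 6 fell, with a median of -0.14, and Mef2c could not be tested for a missing value. Over all named genes 3.82% rose and 6.34% fell. Tfec, a relative of MITF, measured 8.55 and 8.39 without LPS and 10.56 and 10.39 after 1 h and rose by 2.01 ± 0.14 (SE, adjusted p = 7.95e-07), and Skil, a repressor of SMAD signalling, rose by 2.02. Beside Cebpa, the bZIP factor gene Maf fell by 0.95, and Gata6, the factor of large peritoneal macrophages, measured 10.24 and 10.45 without LPS and 9.25 and 9.36 after 1 h and fell by 1.04 ± 0.27 (SE, adjusted p = 0.0287). The receptor gene Trem2 fell by 0.53. Apart from Cebpa and Irf8, these falls depended on single arrays: 2, 3, 2 and 3 of the 6 were called without the unstimulated replicate 1, the unstimulated replicate 2, the 1 h replicate 1 and the 1 h replicate 2 array. Zeb2 rose by 0.45 at its brighter probe and measured -0.48 at the other. Its call was lost in a fit of only the unstimulated and 1 h arrays and in one of only the 4 KO channels.

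None of 9 proprotein convertase genes, FURIN among them, was called (median -0.03), and 4 of them were not well above background in any of the 4 samples. Of 22 substrate genes, only the membrane metalloprotease Mmp14 was called, at 9.98 and 9.99 without LPS and 10.65 and 10.37 after 1 h (0.52, SE 0.15, adjusted p = 0.048). A count of 1 in 22 is near the 3.82% of all named genes that rose. That call was lost without any one of the 4 arrays, and without the unstimulated replicate 2 array 2 substrates were called lower. Among 18 housekeeping genes 0 were called, with a median of -0.17 and changes from -0.45 to 0.12.

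**Figure D3:**
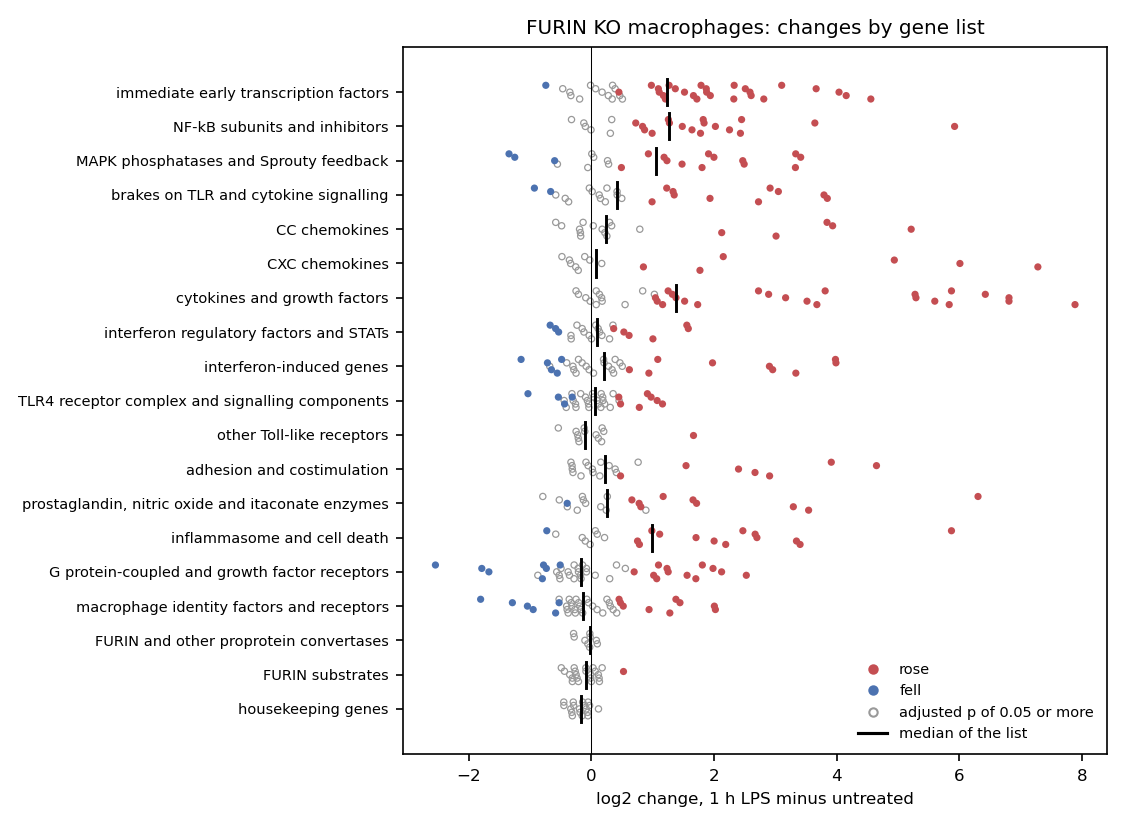
Each point is 1 gene of the list named on the y axis, at its log2 change in KO (1 h LPS minus unstimulated, x axis); filled red points rose, filled blue points fell, open points had an adjusted p of 0.05 or more and the black bar is the median of the list. NF-κB genes, immediate early factors and cytokines have medians of 1.24 to 1.38, and the proprotein convertases and housekeeping genes hold no filled point.

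The genes that the study singled out in its figures were chosen on these samples and are no independent evidence. Serpinb2, the plasminogen activator inhibitor PAI-2, measured 15.92 and 15.82 without LPS and 16.61 and 16.73 after 1 h and rose by 0.80 ± 0.16 (SE, adjusted p = 0.00503). Hcar2, the niacin and butyrate receptor, measured 10.97 and 10.95 without LPS and 11.78 and 12.18 after 1 h and rose by 1.02 ± 0.24 (SE, adjusted p = 0.0164), a call lost without either unstimulated array or the 1 h replicate 2 array. Olr1, a receptor of oxidised lipoprotein, measured 11.61 and 11.42 without LPS and 13.96 and 14.01 after 1 h and rose by 2.47 ± 0.17 (SE, adjusted p = 6.04e-07). No overlap was seen in these 3. The cyclin D1 gene Ccnd1 measured 9.38 and 9.02 without LPS and 8.54 and 8.35 after 1 h and fell by 0.76 ± 0.17 (SE, adjusted p = 0.0132), again lost without the unstimulated replicate 1 or the 1 h replicate 2 array. Serpinb1a, an inhibitor of neutrophil proteases, stood at 13.67 and 13.71 without LPS and 13.04 and 13.13 after 1 h, which is -0.61 ± 0.19 (SE, adjusted p = 0.0811) and not called. Fcgr1, the high-affinity Fc receptor, stood at 10.72 and 10.36 without LPS and 9.75 and 9.66 after 1 h (-0.84, SE 0.46, adjusted p = 0.387). Trem1 (0.30), Arg1 (0.24) and Il12rb1 (0.01) were not called either, and of these Arg1 and Il12rb1 overlapped between the groups.

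WT littermate cells on the same arrays were compared for the size of the response. The difference between the 2 responses was called for 0 of 36927 (0%) by limma, with a smallest adjusted p of 0.309 and 526 at an unadjusted p under 0.05; in WT alone 3141 were called. Without the 1 h replicate 1 array 12 differences were called, 2 higher and 10 lower in KO. The typical SE of this difference was 0.17, against 0.13 for the KO change. Among the 12 largest rises in KO, leaving out Ifnb1 and Ereg, which were not well above background at rest, the median difference was -0.72. For Il6 the WT samples measured 7.89 and 7.34 without LPS and 17.11 and 16.50 after 1 h, a change of 9.20, and the difference was -1.31 ± 0.38 (SE, adjusted p = 1). Il1b showed -1.33 ± 0.35 (SE, adjusted p = 1) and Ccl2 -1.31 ± 0.33 (SE, adjusted p = 1).

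The resting samples enter this difference. Of the 10 of these genes that were well above background at rest on at least 1 array in both genotypes, 8 had the smaller change in KO and 9 the higher resting mean in KO. Il6 was higher at rest in KO by 1.25 (adjusted p = 0.126), Il1b by 1.34 (adjusted p = 0.0684) and Ccl2 by 1.93 (adjusted p = 0.01). After 1 h the KO level differed from WT by -0.06 for Il6, 0.01 for Il1b and 0.62 for Ccl2. Serpinb2 had the most uneven change of the named genes called in KO. WT measured 14.29 and 14.06 without LPS and 16.63 and 16.23 after 1 h, a change of 2.26 against 0.80 in KO, with a difference of -1.45 ± 0.21 (SE, adjusted p = 0.309). At rest Serpinb2 was higher in KO by 1.70 (adjusted p = 0.00103). For Hcar2 the difference was -1.09 ± 0.32 (SE, adjusted p = 1), for C5ar1 -1.08 ± 0.20 (SE, adjusted p = 1) and for Dusp6 -0.91 ± 0.26 (SE, adjusted p = 1). Because the same unstimulated samples set both the resting gap and the size of the change, these values are not independent of each other.

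The largest differences the other way were smaller or rested on unsteady values. Gm13889 measured 7.27 and 7.22 without LPS and 9.81 and 9.95 after 1 h in KO and 7.36 and 7.17 without LPS and 9.15 and 8.98 after 1 h in WT, a difference of 0.83 ± 0.16 (SE, adjusted p = 1). Acrbp fell by 0.52 in KO, a call lost without either replicate 2 array, and measured -1.28 in WT (0.76, SE 0.16, adjusted p = 1). Epha2, an ephrin receptor, measured 7.57 and 7.60 without LPS and 8.84 and 9.07 after 1 h in KO. Its WT replicates lay far apart, at 8.31 and 6.67 without LPS and 8.70 and 7.06 after 1 h. The difference was 0.98 ± 0.80 (SE, adjusted p = 1), and the change in KO was 1.37 ± 0.60 (SE, adjusted p = 0.244). The SE of the KO change pools the spread of both genotypes. The most negative differences of all, Nags (-2.22, SE 1.18, adjusted p = 1) and Npy1r (-1.98, SE 0.93, adjusted p = 1), came from a single WT sample, 1 h replicate 2; neither gene was well above background in any of the 4 KO samples.

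**Figure D4:**
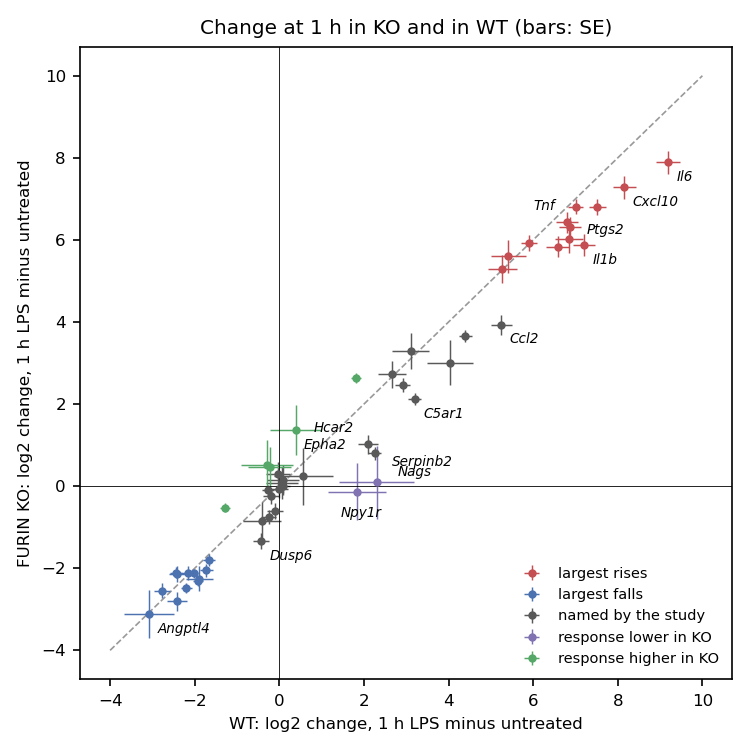
Log2 change after 1 h of LPS in WT (x axis) and in FURIN KO (y axis) for the genes named by size, by the study or by the difference of the responses; bars are SE and the dashed line marks equal changes. Most of the large rises, Il6 and Il1b among them, lie below the line and Nfkbiz and Csf2 on or near it; no difference passed the test.

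The lists were also counted in WT. Immediate early factors rose in 26 cases in KO and 28 in WT, NF-κB genes in 17 and 17, cytokines in 23 and 23, and CC and CXC chemokines in 5 and 6 in both. The widest gap in rises was in the interferon-induced genes, with 9 rises and 5 falls in KO against 14 and 2 in WT, where 4.21% of all named genes rose and 6.96% fell. The KO counts ranged from 7 to 9 rises and from 2 to 4 falls when 1 of the 4 arrays was left out. The list had a median difference of -0.26 against -0.01 over all named genes. These counts were not tested against each other.

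The 1 h changes can be set beside those of the later KO samples, which share the same 2 unstimulated samples and are therefore not independent. Il6 stood at 7.89, 8.71 and 7.96 above rest at 1, 4 and 24 h, Ptgs2 at 6.31, 8.60 and 7.16, and Cxcl10 at 7.28, 8.32 and 8.35. These stayed up. Tnf stood at 6.43, 6.34 and 2.11, and Tnfsf9 at 6.81, 5.42 and 1.98, lower at 24 h than at 1 h in every sample. Egr1 stood at 3.67, 0.44 and -0.44. Of genes not called at 1 h, Socs1 went from 0.50 to 5.19 and 5.28, Nos2 from 0.15 to 5.84 and 6.30, Il15 from -0.25 to 4.39 and 1.51, and Furin from -0.10 to 1.19 and -0.32. Of the falls, Thbd went from -2.81 to -4.90 and -5.03 and Cebpa from -1.81 to -4.67 and -4.48, while Txnip stood at -2.11, -2.18 and -1.79.

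**Figure D5:**
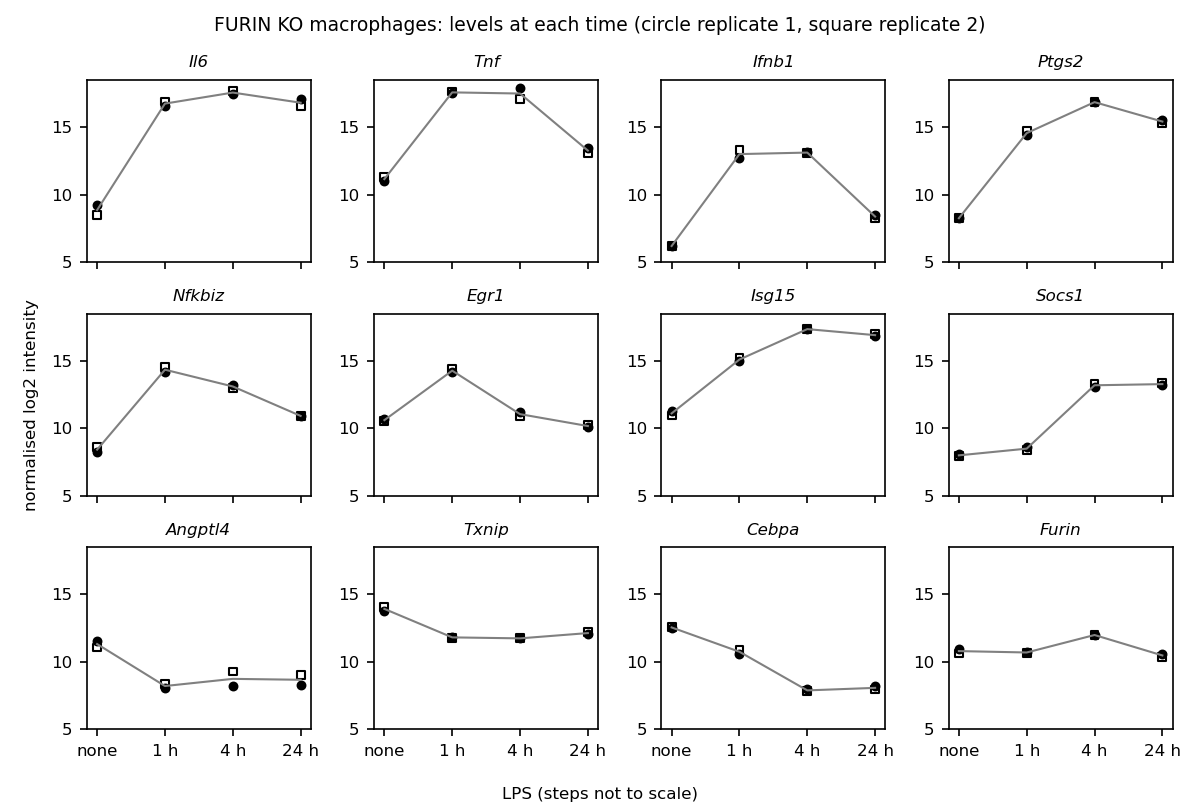
Normalised log2 intensity (y axis) of 12 genes in KO macrophages without LPS and after 1, 4 and 24 h (x axis, steps not to scale); filled circles are replicate 1, open squares replicate 2 and the line joins the means of 2 samples. Egr1 peaks at 1 h, Socs1 is near its resting level at 1 h and high at 4 h, and Cebpa keeps falling to 4 h.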

How the data were processed

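RNA of KO and WT macrophages was hybridised by the authors to 8 Agilent 2-colour arrays on 1 slide. Per the labels, the deposited scanner files come from Agilent Feature Extraction 10.7.3 and hold the raw median intensity of each spot in both channels, with the software's processed signals. The series matrix, deposited by the authors, holds log2 ratios and served only as an alternative. Mean intensities had been planned, but the files used here give medians. Intensities were corrected with normexp (offset 50), normalised by loess within and by quantiles between arrays with limma 3.58.1 (R 4.3.3, statmod 1.5.0), and controls and outlier spots were left out. Repeated spots were averaged, and each gene took its brightest probe. Names came from RefSeq transcripts; array coordinates (an older build) were not used. Of 37018 genes and transcripts, 36947 had a mean log2 intensity of at least 6 and 36927 could be tested. All 16 channels were fitted with limma's separate-channel analysis (within-spot correlation 0.107, from 5000 genes), 1 coefficient per genotype and time, then eBayes (8 residual and 5.16 prior degrees of freedom). Adjusted p-values are Benjamini-Hochberg over all 36927, at 0.05. The number of arrays limits the precision. The p-values and SEs measure the spread between 2 biological replicates, pooled for each gene over both genotypes and all times. Spread among WT or later samples therefore enters the test of a KO change. The code was tested on simulated data.

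Named genes were the 12 largest called rises and 12 largest called falls, the genes the study names, and the largest differences from WT in each direction, plus listed members. The members and lists were chosen with earlier results of these data known. Alternatives covered background correction, normalisation, the filter, probe choice, the fit, the block and leaving out each array. No table column of another sample was used. A few listed genes are not reported here by name.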

Additional observations from a re-analysis of the deposited data

How the results depend on the processing

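The count of calls in KO, 2756, stayed between 2157 and 3270 under other background corrections, normalisations, filters, probe choices and sets of arrays or channels, except when an array compared was left out. Leaving out 1 of the 8 arrays gave 1435 to 2844. Under the methods' t-test on the 4 KO channels, 3 passed after Benjamini-Hochberg adjustment and 5055 before it; the cause was not tested. The replicate numbers recur in every group, but with 2 of them they are only shared numbers that also stand for the dye. Same-numbered KO samples of the unstimulated and 1 h groups deviated together (r = 0.329). A replicate block gave 3073 calls, with 98.4% of the original calls kept, and a replicate block with a dye term gave 4233 (1727 rises and 2506 falls). Of the genes given in the report as not called, the block called Pycard, and with the dye term also Serpinb1a, Fcgr1 and Epha2; a fit of only the 4 KO channels called these 4 and Socs1, the stricter filter on dim genes Pycard and Serpinb1a, and a fit without either 4 h array Serpinb1a. Of the 18 housekeeping genes, which had 0 calls, Tubb5 was called lower with the block, the stricter filter or only the 4 KO channels, B2m as well with the dye term, and Gusb with the 4 KO channels alone. The convertase gene Mbtps1 was called lower with the processed signals of the scanner software, and 3 FURIN substrates with the dye term. The call of the substrate Mmp14 was also lost under each other scaling or background correction. The processed signals moved the change of 26 called genes among those named or listed by over 1.5-fold, each to a larger size, such as Ifnb1 (10.65), Ereg (8.23), Ch25h (4.42), Nlrp3 (4.24), Bcl2l11 (3.08), Il10 (3.38), Vcam1 (5.10) and Fut7 (-3.20), so that the order of the largest changes differed with these signals. The mean of a gene's probes moved 7 called genes, among them Vcam1 (2.44), Fosl2 (1.03), Cdkn1a (0.97), Rgs2 (-1.85) and Fut7 (-1.45). No other setting moved a called gene among them by as much. The difference between the KO and WT responses gave 0 calls in each setting except the processed signals of the scanner software (1 call) and the leaving out of the 1 h replicate 1 array (12 calls); leaving out arrays gave 0 to 12. Among the named and listed genes the direction of a called change turned only for Zeb2, at -0.016 with the mean of its probes. Of 219 called genes among them, 29 to 43 lost the call when 1 of the 4 arrays compared was left out, 23 without scaling between arrays, 15 with the processed signals, 1 with the block and 218 under the methods' t-test. Of the genes named in the report, those lost without scaling were Cd274, Hcar2, Mmp14, Oas1a, Trem2, Trib3 and Zeb2, and those lost with the processed signals Ccnd1, Cd200r1, Gata6, Klf9, Maf, Mapk3, Mmp14, Tmem86a and Zeb2. Without scaling between arrays the median change over all genes was 0.045 in place of -0.021, and 38.4% in place of 41.4% of calls were rises; the largest shift of that share came from leaving out the 1 h replicate 2 array (53.4%). At most 49.4% of KO spots were well above background, and changes of genes near background are the least certain.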

Other observations

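The proliferation marker Mki67 measured 9.93 and 9.73 without LPS and 14.06 and 14.11 after 1 h in KO, a rise of 4.26 ± 0.15 (SE, adjusted p = 9.72e-10) by limma, with 4.36 at a second probe. The samples did not overlap, and the change in WT was 4.70. It was chosen after its values were seen. Of 32 other cell cycle genes, 0 rose at 1 h and 1, E2f1 (-0.53), fell, where 3.82% of all named genes rose and 6.34% fell. The changes of the 32 ran from -0.53 to 0.38 with a median of 0.02. At 24 h, 31 of the 32 were called higher than unstimulated, with a median of 3.05, and Mki67 stood at 2.73. The share of all genes called higher at 24 h was not counted, so the 31 stand without a background.

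Gene families by name, also chosen after seeing values, differed in their share of falls. Of 370 zinc finger genes named Zfp with a number, 89 fell (24.1%) and 16 rose (4.32%), with a median of -0.22, and in WT 130 fell. Of 78 mitochondrial ribosomal protein genes, 16 fell (20.5%) and 0 rose, with a median of -0.25. Of 35 DEAD-box helicase genes 6 rose (17.1%) and 0 fell, and of 35 Kelch-like genes 7 fell and 1 rose. Over all named genes 3.82% rose and 6.34% fell.

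The KO replicates disagreed for Gpr82, an orphan receptor, which measured 6.51 and 6.59 without LPS and 6.37 and 15.76 after 1 h (4.51, SE 2.08, adjusted p = 0.274).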
